A study of Mus musculus with 12 samples.

Results

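Untreated primary cardiac fibroblast cultures were profiled on 4 of the 12 arrays of this series, and the gene levels of those 4 arrays are described here without any comparison with treated cells. Cardiac fibroblasts are the cells that make and repair the collagen-rich framework of the heart. On culture plastic, and in the presence of serum, they are known to take on features of myofibroblasts, contractile cells that assemble smooth muscle actin into stress fibres and lay down matrix. Digests of heart tissue also hold resident macrophages, endothelial cells and mural cells (pericytes and smooth muscle cells), so each of these cell types was looked for through its own marker genes.

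The cells were taken from female C57/BL6 mice aged 10 to 16 weeks and kept on uncoated plastic in Dulbecco's modified Eagle's medium with 10% fetal calf serum. The other 8 arrays hold cells of the same origin after 48 h with CCN2 at 200 nmol/L (4 arrays) or with GDF15 at 500 nmol/L (4 arrays). The labels of the untreated arrays name no treatment and no time, and they do not say whether the 4 arrays come from separate cultures or animals, so the spread between them may be technical. The labels name neither a passage number nor a method of isolation. Total RNA was hybridised to Illumina mouse bead arrays, on which each probe is a short oligonucleotide read as a fluorescence signal in arbitrary units.

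A gene entered the ranking when at least 1 of its named probes had a detection p-value, which compares the probe with the negative control probes of the same array, under 0.05 on each of the 4 arrays. Of 19057 genes with a named probe, 9769 (51.3%) met this rule, 2024 were detected on 1 to 3 arrays and 7264 on none. Each gene was placed by its brightest accepted probe, from 23296 units for the brightest gene to 46.3 units for the dimmest, with a median of 195 units. Its percentile is its place among the 9769 genes, with 100 for the brightest and 50 for the median gene. Signal depends on how well each probe hybridises as well as on RNA abundance, so ranks are of probe brightness and no ratio between single genes is given. Sums and shares of signal over groups of genes are also of probe brightness and not of RNA. Values after ± are standard deviations (SD) over the 4 arrays (n = 4).

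The 4 arrays were close to each other. Between 19211 and 19691 probes were detected per array, and Pearson's correlation of normalised log2 values across genes, which are not independent replicates, lay between 0.994 and 0.995 for the pairs of arrays. The median gene had a log2 SD of 0.11, and 4 genes had an SD above 0.5. Array 1 was the dimmest before normalisation, with a median probe signal of 38.1 units, and arrays 2, 3 and 4 had 42.7, 42.7 and 46.1 units. Signals below are the deposited values, and many genes read lowest on array 1. The order of the arrays within a gene can change after normalisation, as for Fth1, Dcn, Acta2 and Cldn5. The lowest signal of a detected probe was 41.2, 46.1, 45.4 and 49.3 units on arrays 1 to 4, which marks the floor of the measurement.

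At the edge of the detection rule the values on both sides were alike. Il11, a cytokine of the interleukin-6 family, was accepted with a highest detection p-value of 0.0491 and signals of 43.4, 50.7, 52.9 and 49.3 units on arrays 1 to 4. Col7a1, which encodes anchoring fibril collagen, missed the rule with a highest detection p-value of 0.0513 and signals of 46.9, 46.0, 49.3 and 50.2 units. The signals of these genes overlapped, so a gene near the floor that is called detected cannot be set apart from one that is not.

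Different probes of 1 gene often gave very different signals. Among 3596 genes with more than 1 accepted probe, the brightest probe exceeded the dimmest by a median of 2.31-fold, the ratio exceeded 10-fold for 415 genes, and the median gap in percentile was 24.3 points. Acta2, which encodes smooth muscle alpha-actin, had 4 accepted probes at 16385, 4620.3, 4183 and 2581 units, another at 48.7 units detected on 3 arrays and a further probe at 34.0 units detected on none. Dcn, the proteoglycan decorin that binds collagen fibrils, ranged from 17748 units for its brightest probe to 93.9 units for its dimmest. Fn1, which encodes fibronectin, ranged from 4967 to 50.9 units over 4 accepted probes. Low signal from a gene with a single probe therefore sets no upper limit on its RNA. Other probes are given below for some genes only, and further genes also have dimmer accepted probes.

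**Figure D1:**
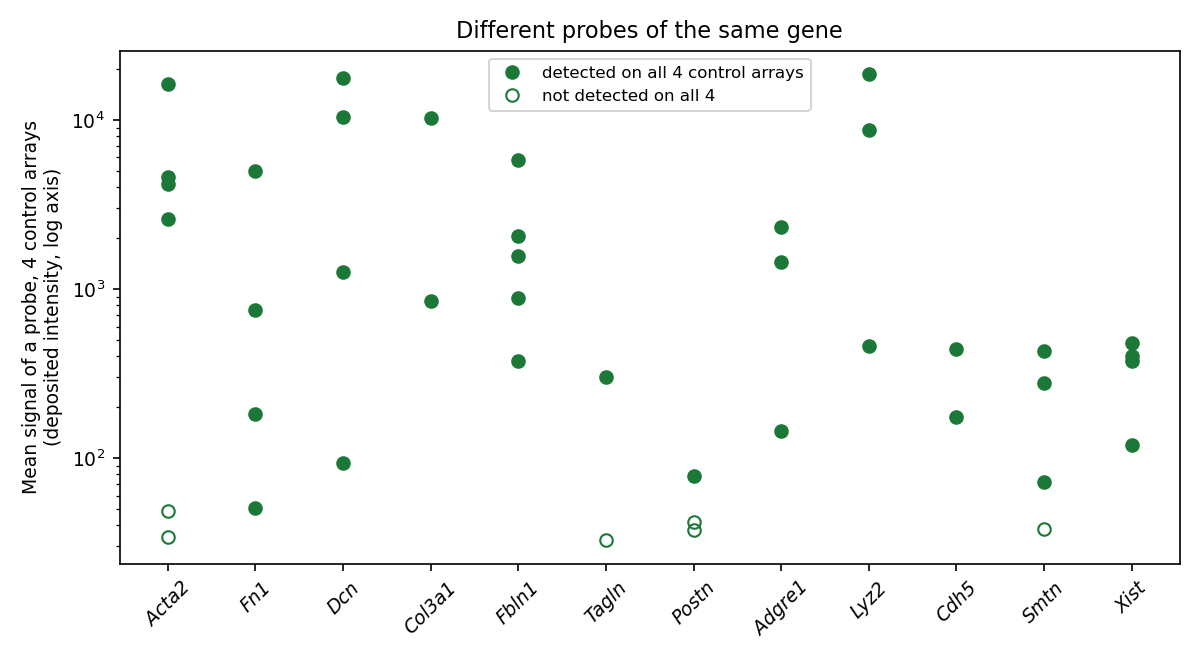
Mean signal over the 4 untreated arrays (log axis, arbitrary units) of every named probe of 12 genes, with filled circles for probes detected on all 4 arrays and open circles for the rest. Probes of the same gene lie far apart, as for Acta2 between 16385 and 34.0 units and for Dcn between 17749 and 93.9 units.

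Promoter sequences from RefSeq (GRCm38.p6), each 250 bases before to 50 bases after an annotated start, were matched to 7926 of the 9769 genes. The list called contractile here also holds matrix and adhesion genes of myofibroblasts, such as Tnc, Postn and Itga11. Its genes are shown because they include many known targets of serum response factor, which binds the CArG box. Another reason is that Acta2 stood among the brightest genes. The motif was chosen after the signals had been seen. The capitals below mark matches to the CArG box, with at most 1 C or G allowed among its 6 inner bases, read on both strands.
Acta2 promoter, chr19:34255324-34255623, minus strand: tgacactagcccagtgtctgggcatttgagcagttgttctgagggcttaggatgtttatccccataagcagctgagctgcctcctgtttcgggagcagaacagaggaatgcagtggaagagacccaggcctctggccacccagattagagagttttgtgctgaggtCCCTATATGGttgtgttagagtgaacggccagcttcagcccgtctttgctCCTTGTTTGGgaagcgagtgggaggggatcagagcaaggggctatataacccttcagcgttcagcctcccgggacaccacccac
Vcl promoter, chr14:20929148-20929447, plus strand: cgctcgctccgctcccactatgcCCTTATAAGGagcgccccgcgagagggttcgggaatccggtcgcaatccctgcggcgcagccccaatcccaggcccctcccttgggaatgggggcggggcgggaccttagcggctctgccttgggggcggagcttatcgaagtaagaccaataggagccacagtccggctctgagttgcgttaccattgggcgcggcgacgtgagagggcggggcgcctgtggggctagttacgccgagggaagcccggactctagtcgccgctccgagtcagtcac
Cnn2 promoter, chr10:79988350-79988649, plus strand: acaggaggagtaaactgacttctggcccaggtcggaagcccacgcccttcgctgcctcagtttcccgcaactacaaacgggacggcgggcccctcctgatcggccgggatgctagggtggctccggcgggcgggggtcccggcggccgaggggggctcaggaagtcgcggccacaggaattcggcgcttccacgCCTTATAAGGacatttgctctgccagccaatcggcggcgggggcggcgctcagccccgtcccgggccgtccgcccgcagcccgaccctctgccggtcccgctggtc

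The Acta2 window held matches whose first bases lie 84 and 34 bases before the annotated start, and each of them has a G or C among its inner bases. The letters TATATAA stand after that annotated start in the printed window. Whether transcription begins at the annotated start was not tested, so the distances rest on the annotation. Vcl, which encodes the focal adhesion protein vinculin, had a match without such a base 227 bases before the start, and Cnn2, the actin-binding calponin 2, had one 56 bases before the start. Counted without the allowed C or G, the motif was in 4 of 24 windows of 18 contractile genes (16.7%), those of Vcl, Cnn2, Myl6 and Myl9, against 1.41% of the windows of all detected genes and 1.63% of all windows in the table. Allowing it, the share was 5 of 24 windows (20.8%), against 9.12% of the windows of all detected genes. Because the list was shown for its known targets of serum response factor, a raised share may follow from that choice and is no independent finding. No test was made of these shares, and a match is a run of letters and not a shown binding site.

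Transcript starts of ribosomal protein genes are shown because these genes fill much of the top of the ranking. Their messenger RNAs are known to begin with a C followed by a run of pyrimidines, the element through which growth signals tune their translation. The sequences span 10 bases before to 20 bases from the annotated start, and capitals mark a C followed by 5 or more C or T that begins within 3 bases of it. Rpl41, without such a run at its annotated start, is given last.
Rpl38, chr11:114668570-114668599, plus strand: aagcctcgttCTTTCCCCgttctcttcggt
Rps24, chr14:24490668-24490697, plus strand: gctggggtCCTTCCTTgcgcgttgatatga
Rpl27a, chr7:109519185-109519214, plus strand: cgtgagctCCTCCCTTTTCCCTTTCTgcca
Rpl35, chr2:39005112-39005141, minus strand: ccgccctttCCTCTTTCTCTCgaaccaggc
Rpl28, chr7:4792955-4792984, plus strand: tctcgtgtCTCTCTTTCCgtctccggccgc
Rpl41, chr10:128549149-128549178, minus strand: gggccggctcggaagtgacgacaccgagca

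Among the ribosomal protein genes of the 100 brightest, 10 of 31 windows (32.3%) had this run on the gene's strand, against 7.63% of the windows of all detected genes. The 31 windows belong to 26 genes and include further annotated starts of the same gene. Runs that begin more than 3 bases from an annotated start were not counted, so the share depends on the annotation. The letters TATAAA on either strand were in 2 of those 31 windows (6.45%) and in 16 of 59 windows (27.1%) of the nuclear genes among the 100 brightest that are not ribosomal, against 7.37% for all detected genes. They were in 18.9% of the windows of genes detected on no untreated array and in 13.6% of all windows in the table. Both motifs were chosen with the ranking known, and the shares are descriptions.

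Ribosomal protein genes made up 21 of the 50 brightest genes and 31 of the 100 brightest, against 54 among all 9769 (0.553%). Genes of the mitochondrial genome took 3 places in the first 100, CYTB, ND4 and ND1. The brightest gene was Rplp1, a protein of the ribosomal stalk, with 22788, 23105, 25416 and 21874 units on arrays 1 to 4. Eef1a1, the elongation factor that brings aminoacyl-tRNA to the ribosome, had 22405, 23574, 24348 and 22681 units, and its order with Rplp1 changed between arrays. Fth1, the heavy chain of the iron store ferritin, stood at rank 5 with 19555, 22203, 20961 and 21896 units. Array 1 was lowest in these deposited signals, and array 3 was lowest after normalisation. The 50 brightest genes held 13.4% to 13.8% of the signal that the ranking probes of the 9769 detected genes summed to on each array.

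Places in this list are not finely resolved. Of the 29 gaps between neighbours in the first 30, 28 were smaller than the pooled SD between arrays of the pair. Among genes outside the ribosome the first 30 also held Sparc, Bgn, Dcn, Igfbp7, Ccn5 and Acta2, described with their groups below, and Itm2b (a membrane protein), Tmsb4x (thymosin beta 4, which binds actin monomers), Ctsb (a lysosomal protease), Cst3 (the cathepsin inhibitor cystatin C), S100a11 (a calcium-binding protein), B2m (the light chain of class I antigen-presenting molecules), a predicted transcript and Ubb-ps, a ubiquitin B pseudogene whose probe may share targets with ubiquitin genes. B2m had 14475, 16201, 14381 and 14054 units on arrays 1 to 4, at rank 28.

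**Figure D2:**
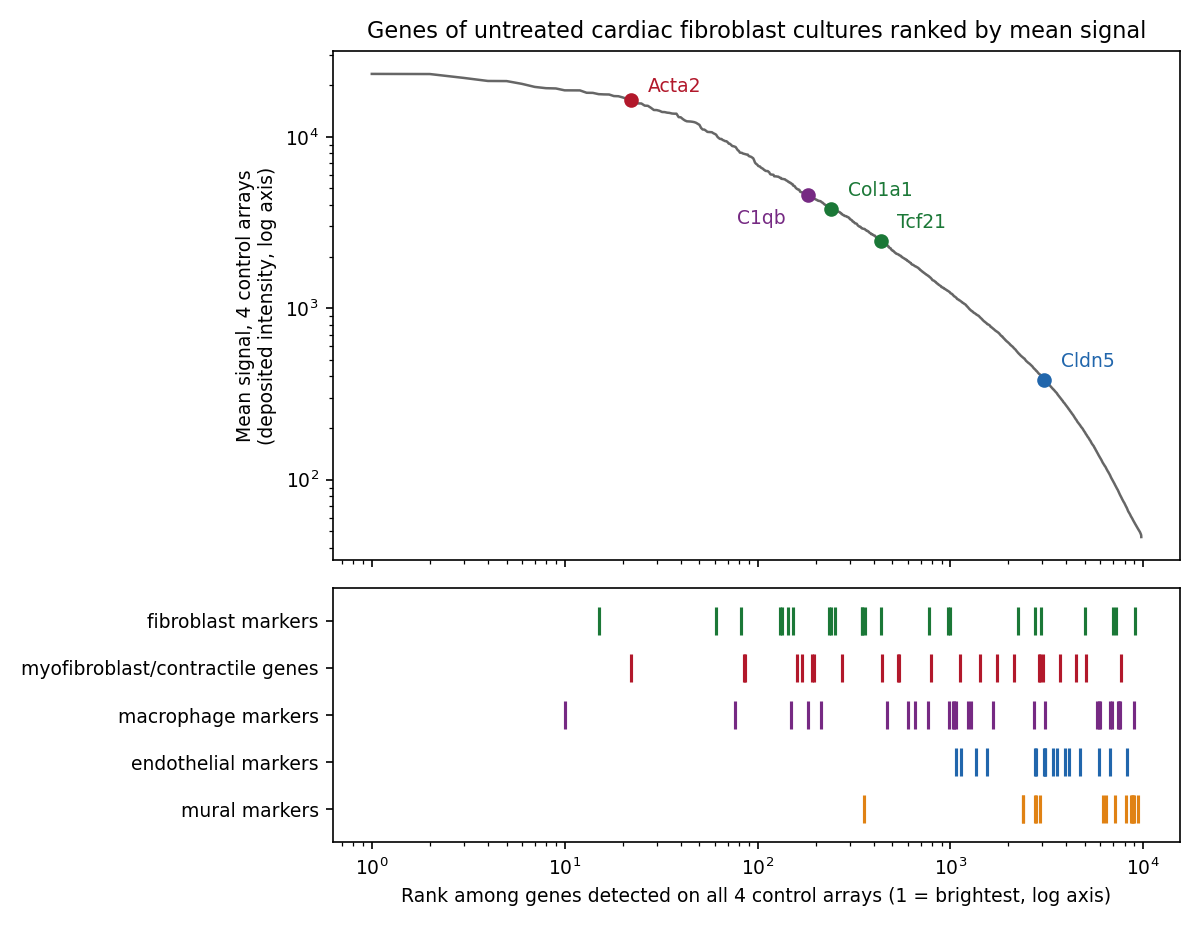
Mean signal over the 4 untreated arrays (log axis, arbitrary units) against signal rank for the 9769 detected genes, with ticks for the members of 5 marker lists. Fibroblast ticks crowd towards the bright end with a median percentile of 96.4, endothelial ticks begin below rank 1000, and mural ticks lie mostly in the dimmer part of the curve.

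Fibroblast genes were measured throughout their list and most were bright. All 24 fibroblast markers with a named probe were detected (100%), against 51.3% of all genes, and 16 of the 24 lay in the brightest 10% of genes. Their median percentile was 96.4 ± 0.219, against 50 for all detected genes. Col6a3 has no named probe and was not analysed here.

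The brightest member was Dcn, with 16884, 18866, 16843 and 18401 units on arrays 1 to 4 at rank 15. Arrays 2 and 4 were higher than arrays 1 and 3 in these deposited signals. After normalisation only array 3 was low, with log2 values of 14.16, 14.16, 14.03 and 14.17 on arrays 1 to 4. Col3a1, which encodes the fibrillar collagen of distensible tissues, followed at rank 61 with 8770.0, 11898, 9578 and 10948 units, again higher on arrays 2 and 4. Its other accepted probe averaged 855 units. Both genes of type I collagen, the main fibre of heart matrix, were close in rank. Col1a1 had 3856, 3993, 3791 and 3616 units, mean 3814 ± 156, at rank 240, and Col1a2 had 3231, 4136, 3866 and 4346 units, mean 3895 ± 484, at rank 235. Col1a1 was nearly level over the arrays, and array 1 was the lowest for Col1a2.

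Tcf21, a transcription factor of the epicardial and fibroblast lineage, was at rank 435 with 2451, 2677, 2630.5 and 2165 units on arrays 1 to 4. Array 4 was the lowest and the other 3 arrays lay close together. Pdgfra, the platelet-derived growth factor receptor used to identify cardiac fibroblasts, averaged 2928 ± 308 units at rank 348. Dpt (dermatopontin, a collagen-binding protein) averaged 2922 ± 103 units, Lum (the proteoglycan lumican) 5689 ± 528 units, Mmp2 (gelatinase A) 5198 ± 475 units and Vim (the intermediate filament vimentin, shared by mesenchymal cells) 5479 ± 369 units, and all of these had ranks in the first 349. The fibulin genes Fbln2 and Fbln1, whose proteins join elastic fibres and basement membranes, stood at ranks 82 and 131 by their brightest probes. Their dimmest accepted probes averaged 554 and 376 units.

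The dimmest fibroblast markers included genes often used to define the cell type. Thy1, a surface glycoprotein of stromal cells, averaged 548 ± 35.2 units at rank 2249, and Fap, a surface protease of activated fibroblasts, 440.4 ± 45.6 units at rank 2745. Pi16, a marker of resting adventitial fibroblasts, had 190.3 ± 17.3 units, Ddr2, a collagen receptor, 90.1 ± 9.51 units, and Meox1, a transcription factor tied to fibroblast activation, 99.2 ± 6.75 units. Gata4, a cardiac transcription factor, lay near the floor with 49.5, 65.7, 52.5 and 53.3 units at rank 9079.

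Transcription factors of cardiac fibroblasts spanned a wide range. Of 33 with a named probe, 30 were detected (90.9%, against 51.3% of all genes), with a median percentile of 64.1 ± 0.563. Below Tcf21 came Sox9 (2102 ± 203 units), which drives matrix genes in cartilage and scar, Nfix (1769 ± 217 units), of the nuclear factor I family, and Tead1 (1262 ± 174 units), the DNA-binding partner of YAP. Gata6 averaged 1154 ± 87.4 units at rank 1069, and Tbx20 404 ± 68.0 units with 322, 374, 459 and 461 units on arrays 1 to 4, higher on arrays 3 and 4. Nkx2-5, the factor of cardiac muscle identity, was detected on 1 array (mean 41.6 units), and Wt1 has no named probe and was not analysed here.

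Genes for collagens and for the enzymes that process them were mostly bright. Of 20 collagen genes with a named probe 17 were detected (85.0%, against 51.3% of all genes), with a median percentile of 95.5 ± 0.259. Of 19 processing genes 17 were detected (89.5%, against 51.3% of all genes), with a median percentile of 93.4 ± 0.687. Beside types I and III, the bright collagens were Col8a1 (6261 ± 501 units), a short-chain collagen of vessel walls and injured tissue, and the basement membrane genes Col4a1 (5868 units) and Col4a2 (4248 ± 449 units). Col6a1, a subunit of beaded filaments, averaged 4533 ± 465 units, and Col5a1, which sets the width of type I fibrils, 3725 ± 340.0 units. Col11a1, typical of cartilage, was near the floor at 51.4 ± 3.75 units, and Col2a1, the main collagen of cartilage, was detected on no array.

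Serpinh1 encodes HSP47, the chaperone of procollagen, and stood at rank 42 with 11793, 14353, 11448 and 12278 units on arrays 1 to 4, highest on array 2. Loxl1 and Lox, which crosslink elastin and collagen, averaged 7499 ± 539 and 3536 ± 187 units. The other accepted probes of Serpinh1 and Loxl1 averaged 707 and 68.8 units. P4hb, a subunit of prolyl 4-hydroxylase, had 4928 ± 243 units, and Pcolce and Bmp1, which together trim procollagen, had 2538 ± 222 and 2112 ± 83.4 units. The dimmest detected enzyme was Loxl4 at 99.0 ± 8.13 units.

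Other matrix genes included some of the brightest genes on the arrays. Of 29 such genes with a named probe 25 were detected (86.2%, against 51.3% of all genes), with a median percentile of 94.2 ± 0.725, and 7 were among the 100 brightest genes. Sparc, a collagen-binding matricellular protein, had 18838, 20136, 19026 and 18914 units on arrays 1 to 4 at rank 8. Bgn, the proteoglycan biglycan, had 17546, 18012, 19939 and 16834 units at rank 13, highest on array 3. Mgp (matrix Gla protein, an inhibitor of calcification), Thbs2 (thrombospondin 2) and Ogn (the proteoglycan osteoglycin) averaged 9309 ± 754, 7086 ± 551 and 6854 ± 591 units. Eln, which encodes elastin, averaged 1586 ± 234 units.

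Matrix proteases and their inhibitors were detected for 27 of 29 genes with a named probe (93.1%, against 51.3% of all genes), with a median percentile of 83.1 ± 1.10. The inhibitors Timp2, Timp3 and Timp1 averaged 6533 ± 393, 6091 ± 274 and 2794 ± 119.8 units, and Timp4 was detected on no array. Mmp3 (stromelysin 1) averaged 7672 ± 423 units and Mmp14, a membrane-bound activator of Mmp2, 3727 ± 434 units. Mmp12, an elastase known chiefly from macrophages, averaged 2879.6 ± 371 units, with array 1 lowest at 2414 units. Mmp9, the gelatinase of leukocytes, was near the floor at 54.2 ± 9.16 units.

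Genes of the CCN family and of IGF binding proteins ran from the top of the ranking to the floor. All 15 CCN and insulin-like growth factor (IGF) genes with a named probe were detected (100%, against 51.3% of all genes), with a median percentile of 87.7 ± 0.957. Ccn2, which encodes the CCN2 protein (connective tissue growth factor), stood at rank 31 in the untreated cells with 13099, 16308, 14285 and 13087 units on arrays 1 to 4, highest on array 2. Ccn5, a family member that lacks the C-terminal domain, stood at rank 21 with 16468, 19180.3, 14590.3 and 16453 units, highest on array 2 and lowest on array 3. Ccn1, Ccn4 and Ccn3 averaged 1047 ± 131, 360.5 ± 12.8 and 54.5 ± 4.05 units, the last close to the floor. Igfbp7, Igfbp4 and Igfbp5, secreted proteins that bind IGFs, averaged 16982 ± 952, 10503 ± 679 and 5002 ± 624 units, and Igf1 itself 1001 ± 59.7 units.

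Receptors proposed for CCN2 and GDF15 were detected for 11 of 14 genes (78.6%, against 51.3% of all genes), with a median percentile of 64.7 ± 1.60. Itgb5, an integrin subunit, averaged 4009 ± 462 units and Tgfbr2, the type II receptor of TGF-beta, 3037 ± 287 units by its brightest probe. The other accepted probe of Tgfbr2 averaged 88.9 units. Lrp1, an endocytic receptor, had 267, 409, 336 and 324 units on arrays 1 to 4, highest on array 2. Gfral, the GDF15 receptor known from the hindbrain, was detected on no array, with 30.4, 32.0, 37.3 and 36.6 units. Its co-receptor Ret was also detected on none, with 34.6, 35.2, 38.9 and 42.2 units.

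Contractile genes, a list that also holds the myofibroblast genes Fn1, Lox and Itga11, were bright as a group. Yet Tagln and Actg2, which mark smooth muscle, ranked far lower, and Cnn1, another smooth muscle gene, was detected on no array. Of 24 with a named probe 23 were detected (95.8%), against 51.3% of all genes, and 12 lay in the brightest 10%. Their median percentile was 91.9 ± 0.312. Acta2 stood at rank 22 by its brightest probe, with 15586, 16077, 17446 and 16432 units on arrays 1 to 4. Array 3 was highest and array 1 lowest, whereas array 2 was lowest after normalisation. Its other accepted probes, given above, would place it lower but still among bright genes, since the dimmest of them read 2539, 2733, 2321 and 2732 units.

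Genes of stress fibres and adhesions followed. Myl6, a myosin light chain, averaged 7927 ± 610.1 units and Tpm4 and Tpm1, tropomyosins that cover actin filaments, 7964 ± 639 and 4725 ± 323 units. Vcl and Zyx, proteins of focal adhesions, averaged 4407 ± 234 and 4356 ± 487 units, and Zyx was lowest on array 1 at 3724 and highest on array 3 at 4879.9 units. Fn1 averaged 4967 ± 786 units by its brightest probe, with 4882, 5999, 4901 and 4087 units on arrays 1 to 4, so array 2 was highest and array 4 lowest. Itga11, a collagen-binding integrin of myofibroblasts, averaged 2055 ± 33.8 units.

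Tagln, the actin-binding protein SM22, had 291, 306, 302 and 312 units on arrays 1 to 4 at rank 3683, level over the arrays. Its other probe was detected on none. Postn, the matricellular protein periostin of activated fibroblasts, had 59.9, 90.4, 81.3 and 83.8 units at rank 7706, with array 1 lowest, and its other 2 probes were detected on none. Cnn1, the calponin of differentiated smooth muscle, was detected on no array, with 36.1, 39.9, 41.2 and 42.9 units. Cnn2 had 290.0, 388, 379 and 507 units, lowest on array 1 and highest on array 4, with a log2 SD of 0.30 after normalisation. Actg2, the enteric smooth muscle actin, averaged 184 ± 17.4 units.

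General cytoskeletal genes were among the brightest groups, with 25 of 26 detected (96.2%, against 51.3% of all genes) and a median percentile of 97.1 ± 0.211. Tuba1b, an alpha-tubulin, averaged 13967 ± 1887 units, Anxa2, a membrane-binding annexin, 11263 ± 664 units and Actb, beta-actin, 9431 ± 1069 units. Acta1, skeletal alpha-actin, was detected on no array.

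Macrophage genes were present on every array and several ranked among the matrix genes. Of 29 macrophage markers with a named probe 27 were detected (93.1%), against 51.3% of all genes. In the brightest 10% lay 9 of them, and 9 lay below the median gene. Their median percentile was 87.4 ± 0.681. The summed signal of the detected markers was 55448, 60251, 58114 and 59718 units on arrays 1 to 4, which is 0.974% to 1.02% of the signal that the ranking probes of all 9769 detected genes summed to on each array. In bulk RNA the number of macrophages and the RNA per macrophage cannot be told apart, and these values give no share of cells.

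Lyz2, the lysozyme of myeloid cells, stood at rank 10 with 19534, 17661, 18633 and 18895 units on arrays 1 to 4, highest on array 1. Lyz1, a near-identical paralog known from Paneth cells, stood at rank 7 with 19170.5, 20102, 19958 and 19007 units, and the probes of these genes may share targets, so the levels are uncertain. The other accepted probes of Lyz2 averaged 8738 and 461 units, and those of Lyz1 421 and 347 units. Laptm5, a lysosomal protein of blood-derived cells, averaged 8773 ± 638 units, and Fcer1g, the signalling chain of Fc receptors, 5339 ± 739 units.

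The C1q genes encode the subunits of the first complement component, which tissue macrophages make. C1qb stood at rank 183 with 4239, 4701, 4506 and 4945 units on arrays 1 to 4, highest on array 4. C1qc averaged 4196 ± 244 units at rank 213 and C1qa 1020.0 ± 105 units at rank 1227. All 3 subunits were detected on all 4 arrays.

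Surface receptors of macrophages were also measured. Adgre1, which encodes F4/80, had 2033, 2541, 2175 and 2585 units on arrays 1 to 4 at rank 469, higher on arrays 2 and 4. Csf1r, the receptor for the macrophage growth factor CSF1, averaged 766 ± 98.1 units by its brightest probe and 114 units by its other. Markers of tissue-resident macrophages differed in level. Mrc1 (the mannose receptor), Folr2 (a folate receptor) and Fcrls (a Fc receptor-like protein) averaged 1757 ± 312, 1246 ± 158 and 1179.6 ± 68.7 units, whereas Lyve1 and Cd163 lay at 86.3 ± 2.42 and 82.4 ± 5.21 units. Timd4, a marker of long-lived resident cells, was detected on 2 arrays, and Ccr2, the receptor of monocyte-derived cells, on none, with 33.2, 34.6, 37.2 and 35.9 units. Cd74, the invariant chain of antigen-presenting cells, averaged 102 ± 13.7 units, Spi1, the factor PU.1, 107 ± 5.93 units, and Cd68 has no named probe. Ptprc, a surface phosphatase of leukocytes, averaged 84.2 ± 16.3 units at rank 7483. Itgam, an integrin subunit of myeloid cells, lay near the floor at 56.9 ± 1.44 units and rank 8946.

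Macrophage and fibroblast genes were measured in the same RNA, and the part of macrophages in the signal of other genes was not tested. Lysosomal, iron and antioxidant genes, which macrophages and fibroblasts both use, were bright, with 26 of 28 detected (92.9%, against 51.3% of all genes) and a median percentile of 96.3 ± 0.111. Psap (prosaposin), Cd63 and Lamp2 (proteins of the lysosomal membrane) averaged 9118 ± 674, 7879 ± 615 and 7308 ± 355 units.

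Inflammatory genes were detected for 22 of 30 with a named probe (73.3%, against 51.3% of all genes), with a median percentile of 80.9 ± 1.55. The brightest were Vcam1, an adhesion molecule, at 3271 ± 322 units and the chemokines Ccl9, Ccl7 and Cxcl12 at 2959 ± 48.1, 2678 ± 99.6 and 1959 ± 233 units. Il6 averaged 289 ± 21.4 units and Tnf 67.5 ± 2.19 units, and Il1b was detected on no array (mean 36.3 units). Of 18 complement genes 14 were detected (77.8%, against 51.3% of all genes), with a median percentile of 75.7 ± 0.908. The brightest was Serping1, the C1 inhibitor, at 13038 ± 749 units and rank 39, and Cfp, which encodes properdin, averaged 2654 ± 169.9 units.

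Endothelial genes were present at intermediate levels, and none was in the brightest 10%. Of 21 endothelial markers 17 were detected (81.0%), against 51.3% of all genes, with a median percentile of 68.2 ± 0.407. Cldn5, the tight junction protein of vessels, had 348, 387, 389.8 and 407 units on arrays 1 to 4 at rank 3070. Array 1 was lowest in these deposited signals, and array 2 was lowest after normalisation. The brightest member was Egfl7, a secreted endothelial factor, at 1150.3 ± 83.8 units by its brightest probe. Its other accepted probes averaged 285 and 48.9 units, dimmer than the probes of the next members. These were Emcn (the sialomucin endomucin) at 1098 ± 66.2 units and Eng (endoglin, a TGF-beta co-receptor that fibroblasts and macrophages also carry) at 919 ± 46.2 units. Esam, an endothelial adhesion molecule, averaged 812 ± 40.3 units and Robo4, an endothelial guidance receptor, 431 ± 22.5 units.

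Further endothelial genes ranked below Esam. Cdh5, which encodes VE-cadherin, had 425, 525, 389 and 427 units on arrays 1 to 4, highest on array 2, and its other probe averaged 175 units. Pecam1 averaged 319 ± 23.7 units, Tek, the angiopoietin receptor, 378 ± 15.2 units, and Vwf, the clotting factor of endothelial granules, 209 ± 13.8 units. Kdr, the main VEGF receptor of endothelium, was detected on no array, with 32.0, 41.3, 41.3 and 40.2 units, and Ecscr was also detected on none. Erg was detected on 1 array and Fabp4, typical of capillary endothelium, on 2. The summed signal of the detected markers was 7505, 8061, 7694 and 7564 units on arrays 1 to 4.

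Mural genes ran from a few bright members to several near the floor. Of 16 mural markers 15 were detected (93.8%), against 51.3% of all genes, but the median percentile was 34.7 ± 2.30, below the 50 of all detected genes, and 9 members lay below the median gene. Over all 19057 genes, without the detection rule, the median percentile was 64.6, above the middle of that ranking. Pdlim3, a protein of actin filaments, was the brightest at 2904 ± 138 units and rank 356. Pdgfrb, the platelet-derived growth factor receptor of pericytes and many fibroblasts, averaged 517 ± 39.7 units, Notch3 516 ± 12.0 units and Mcam 413 ± 50.6 units. Anpep, the surface aminopeptidase CD13, averaged 438 ± 31.4 units and Smtn, the smooth muscle protein smoothelin, 432 ± 20.4 units at rank 2784.

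Rgs5, Cspg4 and Abcc9 were near the floor. Rgs5, a regulator of G-protein signalling, had 46.9, 57.6, 55.0 and 67.1 units on arrays 1 to 4 at rank 8961. Cspg4, which encodes NG2, had 44.6, 49.2, 53.8 and 58.5 units, and Abcc9, a subunit of the pericyte potassium channel, 51.8, 59.6, 64.1 and 65.1 units. Kcnj8, the other subunit of that channel, was detected on 3 arrays. Below Smtn among smooth muscle genes, Myh11, the smooth muscle myosin heavy chain, averaged 118 ± 10.4 units, Des (desmin) 126 ± 4.99 units and Lmod1 (leiomodin 1) 61.3 ± 5.62 units.

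**Figure D3:**
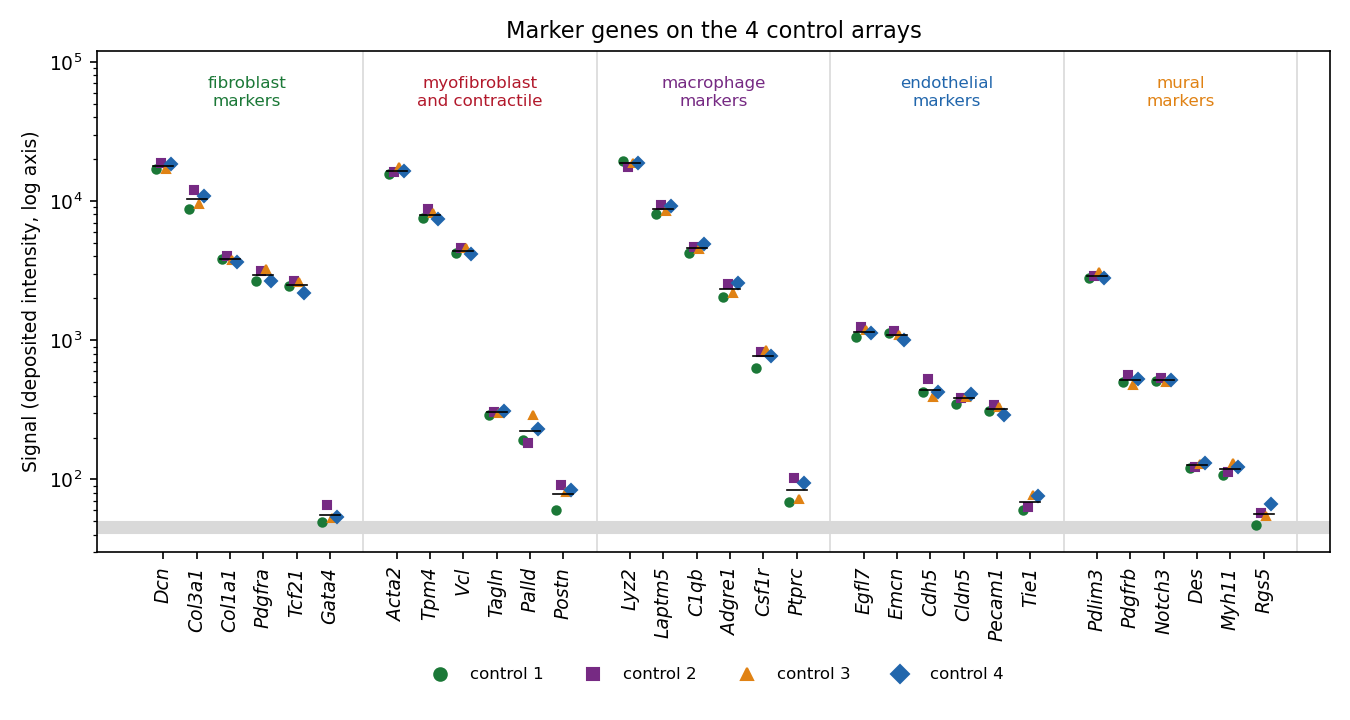
Signal on each of the 4 untreated arrays (log axis, arbitrary units) for 30 marker genes grouped by cell type, with a grey band for the lowest detected signal of the arrays (41.2 to 49.3 units). Dcn, Col1a1, Lyz2 and C1qb lie far above the band, Cldn5 stays between 348 and 407 units, and Gata4 and Rgs5 lie at or just above the band.

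Markers of other cell types were detected in differing shares. Of 19 cardiomyocyte markers 9 were detected (47.4%, against 51.3% of all genes), with a median percentile of 19.7 ± 4.07, against 50 for all detected genes. The brightest of that list were Atp2a2, the calcium pump SERCA2, which many cells use, at 811 ± 92.8 units, and Nppa, atrial natriuretic peptide, at 329.9 ± 52.6 units. Below them the sarcomere genes Actc1, Myl2 and Tnnc1 averaged 88.0 ± 12.4, 82.2 ± 11.7 and 75.5 ± 9.06 units, and Mb, which encodes myoglobin, 75.1 ± 13.7 units. Myh6, the main myosin of mouse heart muscle, was detected on 1 array (mean 44.5 units), and Myh7, Ryr2, Ckm and Ttn were detected on none.

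Of 16 lymphocyte, granulocyte and mast cell markers 4 were detected, a smaller share than the 51.3% of all genes, and of these Kit was the brightest at 369.7 ± 23.7 units. The other 3, S100a8, Cd79b and Cpa3, averaged 67.8 ± 4.22, 52.8 ± 5.62 and 52.0 ± 1.71 units, and Cd3d, Cd4 and Cd8a, which mark T cells, were detected on no array. Of 11 epicardial and mesothelial markers 8 were detected (72.7%, against 51.3% of all genes), with a median percentile of 25.5 ± 2.77. Aldh1a1, a retinoic acid synthesis enzyme, averaged 1892 ± 166 units and Aldh1a2, another such enzyme, 268 ± 28.2 units. The 6 other detected members lay below the median gene, from Tbx18 at rank 7086 to Krt8 at rank 9593. Krt18 and Krt19 were detected on no array and Msln on 1.

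Of 11 adipocyte markers 5 were detected (45.5%, against 51.3% of all genes), with a median percentile of 43.0 ± 2.01. Lpl, lipoprotein lipase, stood at rank 62 with 9214, 9955, 11078 and 9763 units on arrays 1 to 4. Plin2, a coat protein of lipid droplets in many cells, averaged 369 ± 37.1 units and Pparg, the nuclear receptor of fat cell differentiation, 155 ± 17.4 units, while Adipoq and Plin1, which define adipocytes, were detected on no array. Pf4, platelet factor 4, which macrophages also make, had 2300.0, 3257, 2691 and 2673 units at rank 387, while Hba-a1, a globin gene, was detected on no array. Of 9 Schwann and neural markers 3 were detected (33.3%, against 51.3% of all genes), and S100b was not among them. Mbp, the myelin basic protein gene, averaged 112 ± 9.86 units.

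The labelled sex was checked through sex-linked genes. Xist, the RNA of the inactive X chromosome, had 407, 577, 519 and 412 units on arrays 1 to 4. Of the Y-linked genes, Kdm5d was detected on no array, Eif2s3y on 1, and Uty on 3 arrays with 38.9, 47.6, 50.2 and 49.6 units, at the floor. Ddx3y has no named probe and was not analysed here.

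Genes of growth and metabolism gave the following picture. Of 24 S phase genes 22 were detected (91.7%, against 51.3% of all genes), with a median percentile of 51.9 ± 3.18. Of 19 genes of G2 and M phase 13 were detected (68.4%, against 51.3% of all genes), with a median percentile of 52.8 ± 1.15. Mcm4, a subunit of the replicative helicase, averaged 988 ± 67.0 units, Cdk1, the kinase of mitotic entry, 355 ± 35.0 units and Top2a, a topoisomerase of dividing cells, 214 ± 5.73 units. Genes of G1 had a median percentile of 79.0 ± 1.58, and among them Ccnd1, cyclin D1, averaged 1798 ± 101 units and Cdkn1a, the cell cycle inhibitor p21, 1514 ± 131 units. Gas6, a growth arrest gene and ligand of TAM receptors, had 5888 ± 304 units.

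Oxidative phosphorylation genes were detected for 20 of 22 (90.9%, against 51.3% of all genes), with a median percentile of 92.3 ± 0.509. Glycolysis genes were detected for 13 of 15 (86.7%, against 51.3% of all genes), with a median percentile of 80.1 ± 1.30. Atp5g3 and Atp5b, subunits of ATP synthase, averaged 8358 ± 411 and 7996 ± 681 units, and Gapdh, a glycolytic enzyme, 3397 ± 266 units. Secretory pathway genes had a median percentile of 84.7 ± 0.916, with P4hb and Hsp90b1 (4759 ± 304 units), both of the endoplasmic reticulum, among the brightest.

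Signalling genes lay nearer the middle of the ranking. Of 31 genes of TGF-beta and BMP signalling 26 were detected (83.9%, against 51.3% of all genes), with a median percentile of 66.9 ± 0.788. The ligands Tgfb3, Tgfb2 and Tgfb1 averaged 382 ± 36.2, 243 ± 22.1 and 228 ± 11.0 units, and Bmp4 1963 ± 188 units. Of 30 growth factors and receptors 23 were detected (76.7%, against 51.3% of all genes), with a median percentile of 76.5 ± 0.818, led by Vegfd, a lymphatic growth factor, at 4475 ± 278 units, and Ptn (pleiotrophin) at 3699.7 ± 313 units.

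**Figure D4:**
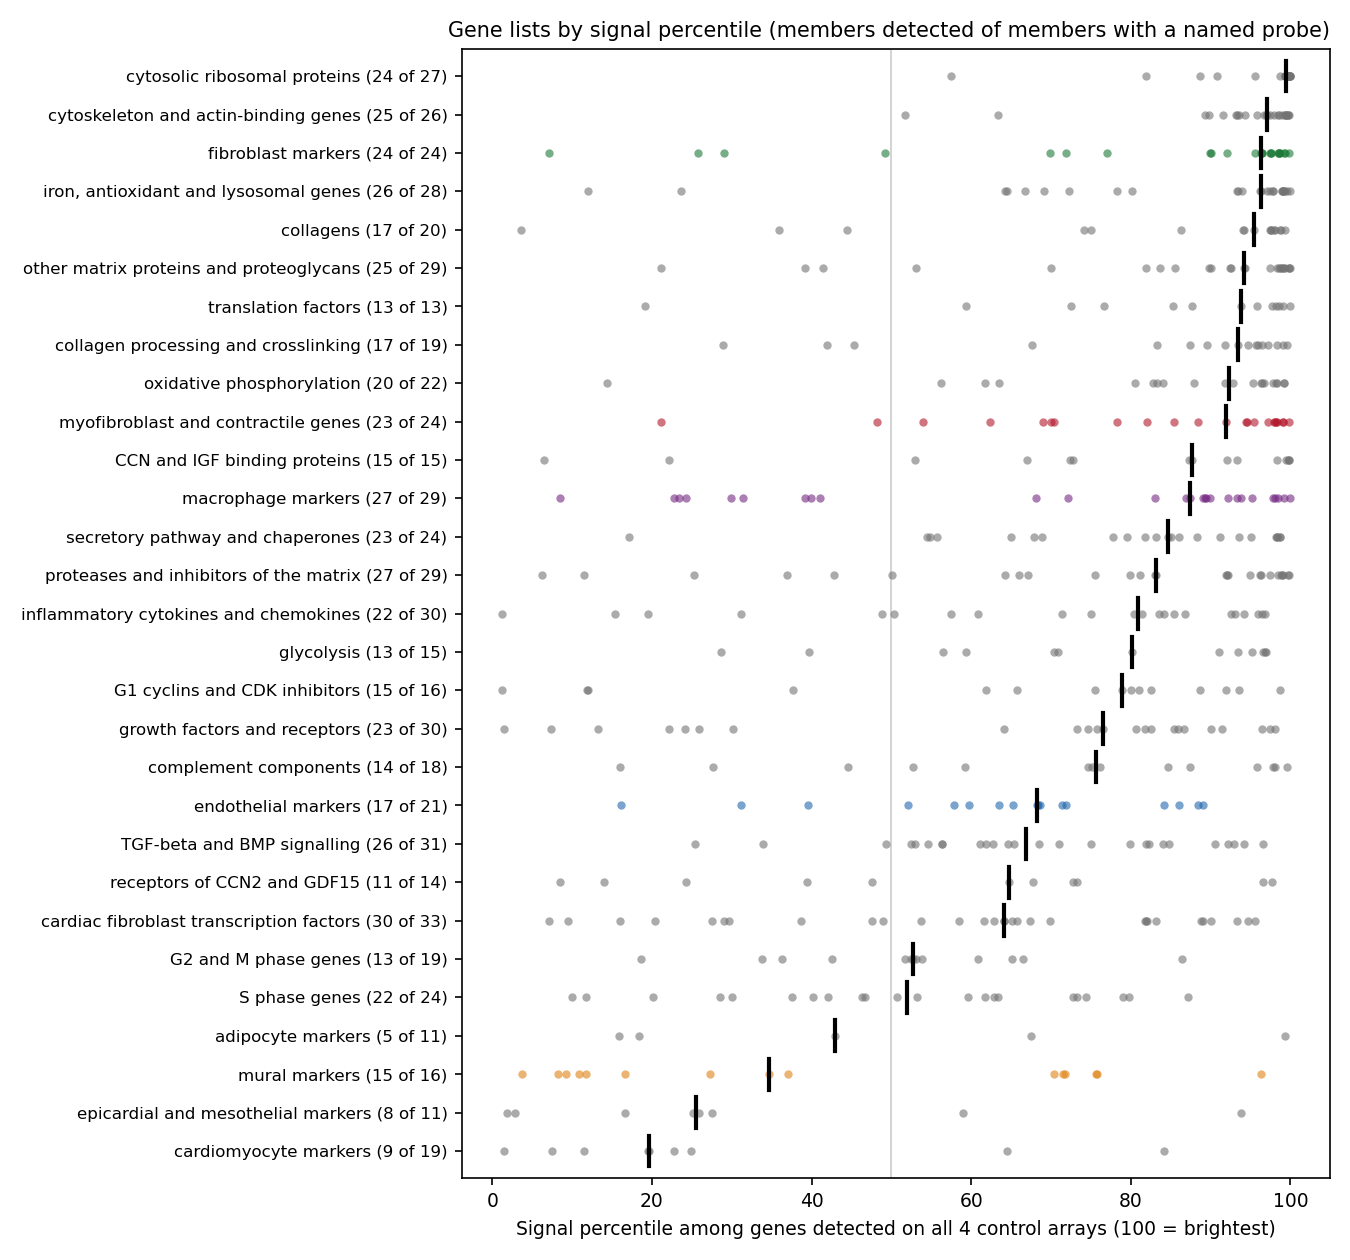
Signal percentile among the 9769 detected genes of each detected member (points) and the median (bar) of gene lists with at least 5 detected members. Ribosomal, cytoskeletal and fibroblast lists have medians above 96, endothelial markers 68.2, mural markers 34.7 and cardiomyocyte markers 19.7.

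Differences between the 4 arrays were small for most genes. Predicted transcripts were left out when the 12 most variable genes were picked. Among the other detected genes brighter than the median gene the SD was greatest for Hspa5, the chaperone BiP of the endoplasmic reticulum. Its signals were 184, 324, 173 and 241 units on arrays 1 to 4, with a log2 SD of 0.40. Arrays 2 and 4 were high. Lypla1, a depalmitoylating enzyme, had 171, 314, 213 and 298 units, again high on arrays 2 and 4, and Afdn, the junction protein afadin, had 446, 480.1, 812 and 523 units, highest on array 3. Of these 12 genes, the 2 highest normalised values were on arrays 2 and 4 for 6 genes (among them Gdi2, Tjp1 and Rer1) and on arrays 3 and 4 for the other 6 (among them Erich5, Insig1 and Luc7l3).

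The same pairs of arrays led in a wider set. Of the 200 genes with the largest SD among these brighter genes, arrays 3 and 4 were the 2 highest for 84 (42.0%) and arrays 2 and 4 for 65 (32.5%), against 18.3% and 16.3% of all detected genes. This count was made after the 12 genes had been seen, and the labels give no slide or scan information with which to compare it. List members among the 200 genes included Itgb1, the common beta subunit of matrix receptors, with 287, 326, 446 and 433 units. Others were Prrx1, a mesenchymal transcription factor, with 190.2, 175, 251 and 267 units, and Ctss, the cathepsin S of macrophages, with 1176, 1812, 1392 and 1807 units. Itgb1 and Prrx1 were high on arrays 3 and 4, and Ctss on arrays 2 and 4.

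**Figure D5:**
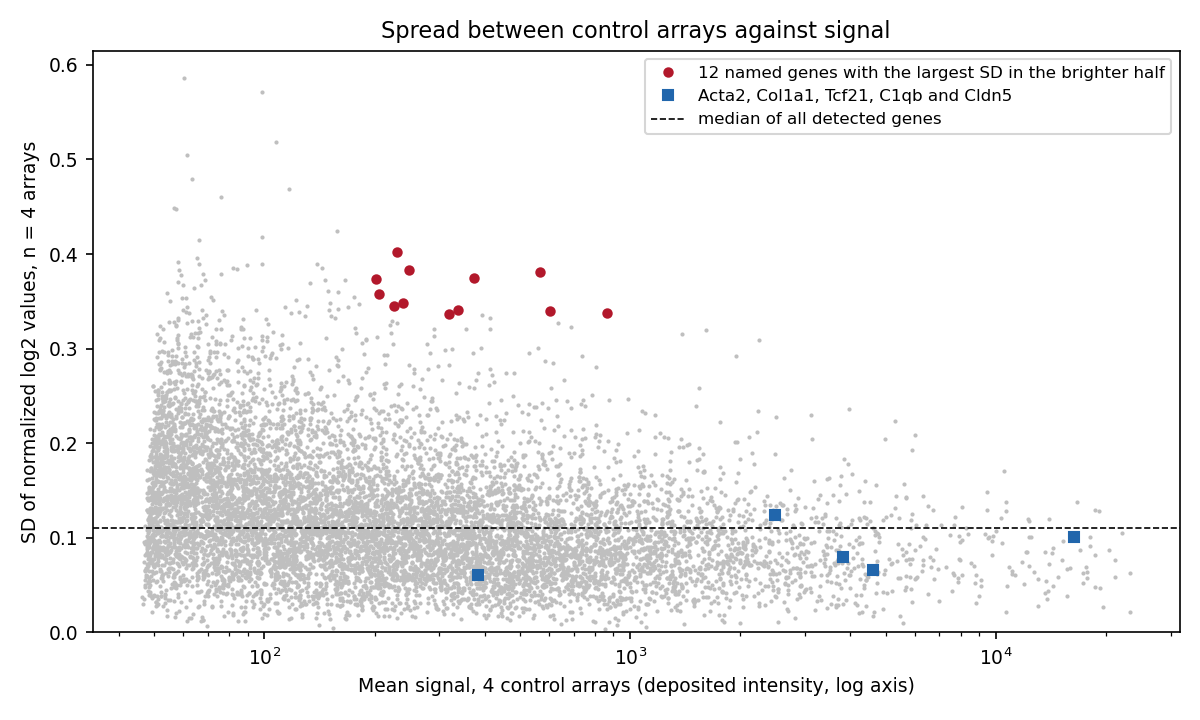
SD of the normalised log2 signal over the 4 untreated arrays against mean signal (log axis, arbitrary units) for the 9769 detected genes, with named marker genes and the most variable genes marked. The median SD is 0.11, and Hspa5 reaches 0.40.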

How the data were processed

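The deposited non-normalised table gives a fluorescence intensity and a detection p-value per probe and array, per the file headers; GenomeStudio 2010.1 is named in the submitters' processing notes. In the authors' processed intensities, the other deposited table, the ranks of probes match those of the raw columns (rank correlation 1), every column has a median of 42.4, and sorted columns differ by at most 0.392% from the average of the sorted raw columns. These intensities were therefore read as quantile-normalised without background subtraction. The tool that made them is not given in the sources used here. Log2 values were computed from the deposited intensities.

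The members and gene lists were chosen with earlier results of these data known. Of 45281 probes, 34885 have 1 gene symbol in the platform annotation, 18 have several and 10378 none. Ranks used the mean raw intensity of the 4 untreated arrays over probes whose detection p-value stayed under 0.05 on all 4, and each gene took its brightest such probe. SDs of signals are in raw units. SDs of log2 values were taken after normexp correction, quantile normalisation and an offset of 16 (neqc, limma 3.58.1, R 4.3.3). With 1 group, no contrast was tested and no p-value is given beyond the deposited detection p-values; single arrays were held against Dixon's limit in the closing section. The number of arrays limits the precision.

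Genes were named from those that a fixed rule selects, and not all of these are printed: the 30 brightest, 5 given markers, up to 4 of the brightest of each of 33 lists (6 for cell types), up to 4 undetected cell type markers, the most variable member of each list and the 12 most variable genes brighter than the median gene. Predicted transcripts count in ranks and are not named. Other named members were chosen after their values were seen. Altogether 32 genes stand in more than 1 list. Alternatives varied the detection rule, the values used, the average, the probe of a gene and the arrays kept.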

Additional observations from a re-analysis of the deposited data

Results flagged for a closer look

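In 14 of 223 values checked (6.28%), a single array lay apart from the other 3 by more than Dixon's 95% limit for 4 samples allows, as a share of the whole range. Chance gives about 1 in 20, and the same count over all detected genes was 545 of 9769 (5.58%). None fell on array 1, 3 on array 2, 6 on array 3 and 5 on array 4. The values that follow are normalised log2 differences between that array and the mean of the other 3.

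Among marker genes, array 4 was lower for Tcf21 (-0.25) and for Kit (-0.16) and higher for C1qb (0.13). Fcer1g was higher on array 2 (0.28), and the fibroblast proteoglycan Dcn was lower on array 3 (-0.13). The median deviation of the contractile genes was higher on array 3 (0.0646), and that of the endothelial markers was lower on array 4 (-0.0446).

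Among other bright genes, Sparc was lower on array 3 (-0.0935), while Rps24 (0.11), Atp5b (0.19) and Anxa2 (0.12) were higher there. Psap was higher on array 4 (0.11). On array 2, Tpi1 was lower (-0.0579) and Eef1a1 was higher (0.0427). Eef1a1 took only the values that quantile normalisation gives ranks 1 and 2, so its difference is fixed by its rank, and its deposited signal was highest on array 3 (24348 units) and not on array 2 (23574 units). Fcer1g had the largest of these differences and Eef1a1 the smallest.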

How the results depend on the processing

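No paired analysis was possible because the report covers 1 group and no sample number in the titles occurs more than once. Without a detection filter, over all 19057 genes, the median percentile was 98.1 for fibroblast, 94.97 for contractile, 93.3 for macrophage, 81.3 for endothelial and 64.6 for mural genes, against 96.4, 91.9, 87.4, 68.2 and 34.7 with it; the base then also holds the genes at background, and the mural median moved from below to above the middle of the ranking. With the mean of all detected probes of a gene they were 96.9, 91.0, 89.7, 70.6 and 38.3. A detection p-value under 0.01 gave 91.4 for contractile, 86.6 for macrophage, 66.2 for endothelial and 31.8 for mural genes, and detection on at least 3 arrays gave 92.3 for contractile and 69.6 for endothelial genes. The median over arrays gave 68.7 for endothelial genes. Leaving out 1 array in turn gave 68.0 to 68.7 for endothelial and 32.3 to 36.4 for mural genes. The order of the 5 lists was the same in each of these settings. Of the 50 brightest genes 38 were kept with the mean of all probes, 49 with the median over arrays and all 50 in the other settings. Genes detected numbered 9182 at a detection p-value under 0.01 and 10218 on at least 3 arrays. Dim genes near 41.2 to 49.3 units are limited by background.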

Other observations

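Of the 100 brightest genes, 27 were neither ribosomal protein genes nor members of a list. Lgals3, the sugar-binding galectin 3, had 12842, 14132, 13568 and 14058 units on the 4 arrays at rank 38. The interferon-inducible membrane genes Ifitm3, Ifitm1 and Ifitm2, which restrict virus entry, stood at ranks 58, 63 and 90 with means of 10641 ± 889, 9833 ± 1143 and 7735 ± 512 units, and as close paralogs they may share probe signal. Gpnmb, a glycoprotein of lysosome-rich cells, averaged 7883 ± 466 units. Prelp, a matrix proteoglycan, and Serpinf1, the secreted inhibitor of vessel growth PEDF, averaged 12308 ± 629.9 and 12244 ± 926 units. These genes were chosen after their values were seen.

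A further 35 probes without a gene symbol were brighter than the gene at rank 50, and they are not analysed here.

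Promoter windows of the marker lists differed in base composition. The letters GGGCGG on either strand were in 5 of 23 windows of macrophage markers (21.7%), whose median GC content was 45.3%, against 62.5% of the windows of all detected genes, whose median GC content was 60.7%. They were in 3 of 11 windows of endothelial markers (27.3%) and in 9 of 11 windows of mural markers (81.8%). The share over genes detected on no untreated array was 29.8%. These shares were computed after the signals were seen, with no test.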
